A study of Homo sapiens with 9 samples.

Results

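The amino acid transporter families were followed in H69 cells, an established small cell lung cancer line, after 24 h with 1 of 2 inhibitors of phosphoinositide 3-kinase (PI3K). Genes were taken in when the array annotation gave them a single symbol beginning with SLC1A, SLC3A, SLC7A, SLC36A, SLC38A or SLC43A, and antisense symbols were left out. This gave 39 of the 19775 genes measured, with 7 in SLC1A, 2 in SLC3A, 14 in SLC7A, 2 in SLC36A, 11 in SLC38A and 3 in SLC43A. All 39 had an entry in the RefSeq gene table. The symbol rule also took in SLC7A6OS, which is the opposite-strand neighbour of SLC7A6 and is not itself a transporter.

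Cells carry amino acids across membranes with several kinds of proteins. In the SLC3 and SLC7 families a glycoprotein heavy chain, SLC3A2 or SLC3A1, is joined to a light chain of the SLC7A group, and the light chain does the exchange. SLC7A5 with SLC3A2 brings in leucine and other large neutral amino acids, whose supply is read by mTORC1, the growth-promoting kinase complex downstream of PI3K. Several of these genes are known targets of ATF4, the transcription factor that raises amino acid uptake and synthesis when amino acids run short.

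Each group held 3 arrays of the same line in complete RPMI medium with serum and added glutamine. The groups were PIK75 at 100 nM, TGX221 at a labelled 1 mM, and control, for which the protocol names DMSO while the treatment field reads none. PIK75 is known as an inhibitor that favours the p110-alpha isoform of PI3K, and TGX221 as one that favours the p110-beta isoform. The labelled doses of both compounds differ widely and the TGX221 unit could not be checked, so a comparison between the compounds is also one between doses. All arrays come from 1 cell line, and arrays within a group are told apart by number alone, so the p-values reflect how far these arrays scatter, which may be technical in part.

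Values are log2 intensities after RMA, a normalization that gives the probes of every array the same overall distribution. Each gene is shown by its brightest probe set over all 9 arrays. Gene values still differed in interquartile range, 2.482 to 2.571 with PIK75, 2.706 to 2.767 with TGX221 and 2.78 to 2.825 in control. RMA values show unequal change between genes and not a change shared by most genes. Bulk RNA also cannot tell fewer cells expressing a gene from less RNA per cell. No detection calls were used, so dim genes may lie at background, and SLC38A4, SLC7A13 and SLC36A4 had mean log2 values below 6. Of 10 neuroendocrine markers, 9 were measured and were bright, with an average over the list of 11.54 on all PIK75 arrays, 11.91 to 11.94 on TGX221 arrays and 11.89 to 11.91 on control arrays. Leukocyte markers (4 of 5 measured) averaged 6.57 to 6.69 with PIK75, 6.48 to 6.55 with TGX221 and 6.43 to 6.54 in control. All 5 fibroblast markers were measured and averaged 8.03 to 8.13 with PIK75, 7.79 to 7.93 with TGX221 and 7.77 to 7.81 in control. COL1A1, a defining gene of that list, had 9.53 to 9.57 with PIK75, 9.26 to 9.30 with TGX221 and 9.23 to 9.35 in control. Each of these fibroblast markers was called higher with PIK75 than in control, by 0.26 (COL1A1) to 0.40 (COL1A2), beside 35.2% of all genes. Of the leukocyte markers, CD3E (0.20) and CD14 (0.34) were called higher, and PTPRC and LYZ were not called. The ratio of the 3′ to the 5′ actin probe sets, a sign of RNA quality, was 0.467, 0.535 and 1.131 on the log2 scale with PIK75, against 0.256, 0.415 and 0.325 with TGX221 and 0.239, 0.288 and 0.443 in control. The part of these values in the results was not tested, except for the actin value, which was added to the model as a covariate. With it, 14 of the 39 genes were called higher and 6 lower in PIK75 than in control cells. The counts were 10 and 6 in PIK75 against TGX221 cells, and 1 and 0 in TGX221 against control cells. Over all 19775 genes, that fit called 4510 higher and 4257 lower, 3281 and 3777, and 107 and 37, in the same order. The counts without the actin covariate are given with each comparison.

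With PIK75, SLC3A2, SLC38A6 and SLC38A9 changed most among the 39 genes. SLC3A2 was 2.92-fold higher and SLC7A5 1.66-fold higher than in control, while SLC38A6 was 2.48-fold lower and SLC38A9, a lysosomal amino acid sensor, 2.09-fold lower. Of the 39 genes, 19 were called higher and 8 lower in PIK75 cells than in control cells (limma, adjusted p below 0.05), and 12 were not called. Over all genes, 35.2% were called higher and 25.2% lower, so a call alone is common in this comparison. The transporters' shares were 48.7% higher and 20.5% lower. At a change of 1.5-fold or more, 4 transporters were higher and 4 lower, where 1.48% of all genes were higher and 10.4% lower. The median log2 fold change was 0.19 over the transporters and 0.09 over all genes, and the median size of the change was 0.25 and 0.21.

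These directions depend in part on how the arrays are scaled. The spikes added at hybridization read 0.35 higher on PIK75 than on control arrays (log2 scale), and centring on them moved the median of all genes to -0.26, against 0.01 with the poly-A spikes and 0.02 with cyclic loess. The split of all calls was 6965 higher and 4982 lower as deposited, 4524 and 4953 with cyclic loess, 2469 and 5109 with the poly-A spikes, and 386 and 13108 with the hybridization spikes. For the transporters the counts were 19 higher and 8 lower as deposited, 14 and 7 with cyclic loess, 11 and 9 with the poly-A spikes, and 4 and 19 with the hybridization spikes. Calls for SLC3A2, SLC7A5, SLC7A9, SLC7A6, SLC7A11, SLC38A6, SLC38A9 and SLC43A3 were kept in every alternative that could test them, apart from the 1.5-fold minimum, which SLC7A11 missed. The other 19 calls were lost or turned in at least 1 alternative.

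**Figure D1:**
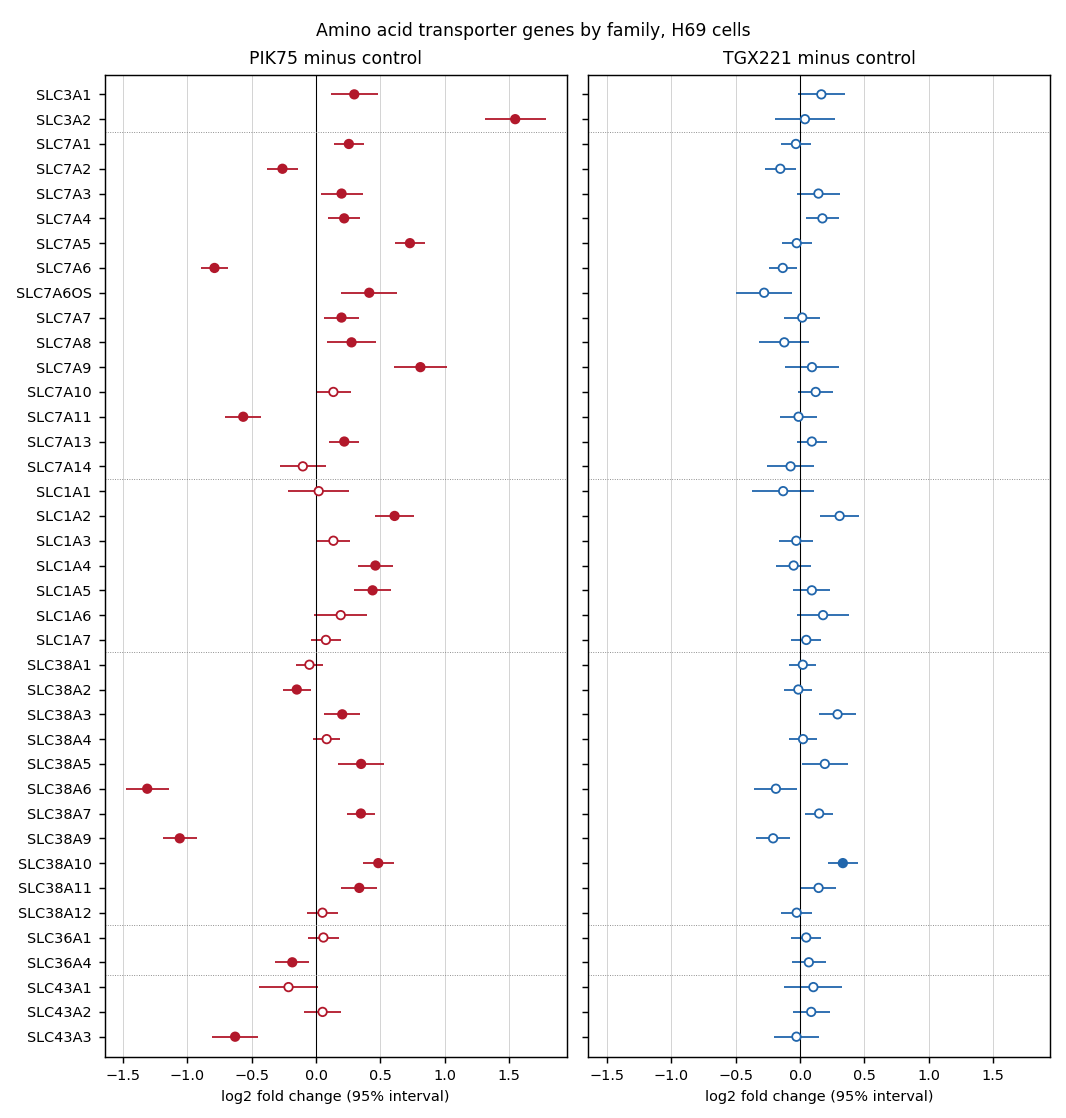
Log2 fold change with its 95% interval (limma) for each of the 39 genes, by family from top to bottom, in PIK75 minus control (left) and TGX221 minus control (right); filled points have an adjusted p below 0.05. SLC3A2 lies at 1.55 and SLC38A6 at -1.31 with PIK75, while with TGX221 only SLC38A10 is filled, at 0.33. With arrays centred on the hybridization spikes, 31 of the 39 genes lie below 0 in PIK75 minus control, against 11 here.

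SLC3A2 (chr11:62856109-62888860, GRCh38.p14) encodes the heavy chain also called CD98, which carries its light chains to the plasma membrane. It had values of 12.03, 11.72 and 11.46 on the PIK75 arrays, against 10.26, 10.19 and 10.23 on the TGX221 arrays and 10.26, 10.22 and 10.09 on the control arrays. Every PIK75 array lay more than 1 log2 unit above every other array, and the TGX221 and control arrays overlapped. The log2 fold change of PIK75 over control was 1.55 (95% interval 1.31 to 1.78, adjusted p = 1.48e-07, limma). It ranged from 1.195 to 1.81 over the alternatives, with the lowest value under centring on the hybridization spikes. The PIK75 array with the lowest SLC3A2 value was also the one with the highest actin ratio, 1.131. TGX221 cells differed from control by 0.04 (95% interval -0.20 to 0.27, adjusted p = 0.895).

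SLC7A5 (chr16:87830023-87869507) is the leucine-carrying light chain that pairs with SLC3A2. Its values were 11.41, 11.32 and 11.28 with PIK75, 10.59, 10.57 and 10.58 with TGX221, and 10.58, 10.66 and 10.58 in control. The PIK75 arrays stood apart from all others, and the spread within each group was under 0.15. SLC7A5 was higher with PIK75 than in control by a log2 fold change of 0.73 (95% interval 0.61 to 0.84, adjusted p = 2.25e-07), and TGX221 differed from control by -0.03 (95% interval -0.14 to 0.09, adjusted p = 0.85). SLC3A2 and SLC7A5 were each read by 1 probe set, so no other probe set of theirs could be compared.

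Promoter sequence from RefSeq (GRCh38.p14, 250 bases before to 50 after each annotated start) was at hand for 30 of the 39 genes, in 52 windows. It is shown here for the genes that rose together and for the matches to a motif tied to amino acid shortage. The core TGATGNAA of the element bound by ATF4 together with C/EBP factors was searched on both strands. It occurred in 6 of the 52 transporter windows (11.5%), in 6 genes, and in 1270 of all 35116 windows (3.62%). A match is a description of letters in a window and does not show binding. The 30 bases around each match follow, read along the gene's strand with the match in capitals (the reverse complement where the core lies on the other strand). Positions count from 1 at the annotated start of the window, with -1 just before it. A gene can have several such starts. The matches of SLC3A2, SLC1A4, SLC1A5 and SLC38A1 lie at starts inside the annotated locus, not at its outer end.
SLC3A2, chr11:62881719-62881748, plus strand, position 38: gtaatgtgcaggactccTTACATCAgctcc
SLC7A1, chr13:29595663-29595692, minus strand, position 8: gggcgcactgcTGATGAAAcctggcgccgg
SLC1A4, chr2:64989381-64989410, plus strand, position -7: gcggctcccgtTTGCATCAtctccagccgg
SLC1A5, chr19:46784893-46784922, minus strand, position -97: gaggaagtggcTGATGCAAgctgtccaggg
SLC1A3, chr5:36596357-36596386, plus strand, position -220: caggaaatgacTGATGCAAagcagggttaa
SLC38A1, chr12:46266502-46266531, minus strand, position -4: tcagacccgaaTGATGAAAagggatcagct

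Of these 6 genes, SLC3A2, SLC7A1, SLC1A4 and SLC1A5 were called higher with PIK75 and SLC1A3 and SLC38A1 were not called. The shares called higher were 48.7% of the 39 genes and 35.2% of all genes. With the hybridization spikes, SLC7A1 (-0.10), SLC1A4 (0.11) and SLC1A5 (0.09) lost their calls. The other members called higher as deposited, SLC7A5 included, had no TGATGNAA in their windows or no window that was searched. The SLC7A5 window held the letters CACGTG, the E-box that MYC and related factors are known to bind, a motif searched only after the values had been seen. CACGTG occurred in 9 of the 52 transporter windows (17.3%) and in 2548 of all windows (7.26%). The 250 bases before the starts of the heavy chain and of its light chain are given below, with CACGTG in capitals.
SLC7A5, chr16:87869508-87869757, minus strand: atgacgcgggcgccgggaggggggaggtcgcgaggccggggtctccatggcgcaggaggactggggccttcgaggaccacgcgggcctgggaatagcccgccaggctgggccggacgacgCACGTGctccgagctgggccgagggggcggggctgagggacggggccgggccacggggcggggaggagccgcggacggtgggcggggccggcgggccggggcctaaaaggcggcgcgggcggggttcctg
SLC3A2, chr11:62881449-62881698, plus strand: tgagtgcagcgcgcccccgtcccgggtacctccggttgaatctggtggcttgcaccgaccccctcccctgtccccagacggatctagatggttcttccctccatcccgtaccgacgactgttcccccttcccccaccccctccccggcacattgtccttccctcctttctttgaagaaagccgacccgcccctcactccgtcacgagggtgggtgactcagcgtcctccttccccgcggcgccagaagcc
The SLC3A2 stretch belongs to the start whose window holds the TGATGNAA match, which lies after the start and so outside this stretch. Windows of the other SLC3A2 starts, among them the one after chr11:62855859-62856108 at the beginning of the locus, held no TGATGNAA. The G and C content of the SLC3A2 stretch shown was 65.6%, against 79.6% for SLC7A5.

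The remaining light chains of SLC3A2 did not move with it as a set. SLC7A6 (chr16:68264526-68301819), which exchanges basic for neutral amino acids with sodium, had 7.96, 7.99 and 7.97 with PIK75, 8.58, 8.63 and 8.68 with TGX221, and 8.80, 8.75 and 8.74 in control. The PIK75 arrays were the lowest, and the TGX221 arrays lay between them and the control arrays without overlap. Its log2 fold change with PIK75 was -0.79 (95% interval -0.90 to -0.68, adjusted p = 6.08e-08) and with TGX221 -0.13 (adjusted p = 0.184). The other 2 probe sets of SLC7A6 changed by 0.13 and -0.03 with PIK75 and were not called, so the fall was read by 1 of its 3 probe sets.

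SLC7A11 (chr4:138164097-138242349), the light chain that takes up cystine in exchange for glutamate and so feeds glutathione synthesis, was also lower. It had 9.17, 9.06 and 9.24 with PIK75, against 9.71, 9.63 and 9.80 with TGX221 and 9.69, 9.67 and 9.80 in control. PIK75 arrays lay below all others, and the TGX221 and control arrays overlapped. The log2 fold change with PIK75 was -0.57 (95% interval -0.71 to -0.43, adjusted p = 1.2e-05). Another probe set was lower too, at -0.69, and the last of the 3 changed by 0.09 and was not called.

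SLC7A8, a light chain for neutral amino acids with broader choice than SLC7A5, had 8.92, 9.23 and 9.09 with PIK75, 8.68, 8.69 and 8.67 with TGX221, and 8.70, 9.0 and 8.71 in control. Control replicate 3, at 9.0, lay among the PIK75 values. SLC7A8 was called higher with PIK75 than in control at 0.28 (adjusted p = 0.0184), a call lost in 5 of 18 alternatives, and the value was -0.08 with the hybridization spikes. Leaving out PIK75 replicate 3, control replicate 1 or control replicate 5 ended it (0.20 to 0.23, adjusted p of 0.0736 to 0.085). SLC7A7, which exports basic amino acids from epithelial cells, had 6.31, 6.48 and 6.54 with PIK75, 6.30, 6.20 and 6.29 with TGX221, and 6.29, 6.24 and 6.21 in control. The lowest PIK75 array exceeded the highest control array by only 0.02. Its change of 0.20 (adjusted p = 0.0187) became -0.15 with the hybridization spikes, and the call ended without PIK75 replicate 3 or 5 or control replicate 5 (0.15 to 0.18, adjusted p of 0.0608 to 0.0726). SLC7A10, a carrier of small neutral amino acids and D-serine, had 7.92, 7.92 and 8.07 with PIK75, 7.92, 7.95 and 8.0 with TGX221, and 7.88, 7.90 and 7.73 in control, and was not called (0.13, adjusted p = 0.0849).

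SLC3A1 is the second heavy chain, known from kidney and gut, where it pairs with SLC7A9 to take up cystine and basic amino acids. SLC3A1 was dim, with 6.14, 6.15 and 6.14 in PIK75 cells, 6.11, 6.11 and 5.82 in TGX221 cells, and 5.75, 6.0 and 5.80 in control cells. It was called higher with PIK75 at 0.30 (adjusted p = 0.00964), but lay at -0.06 with the hybridization spikes, and its other 2 probe sets were not called. SLC7A9 (chr19:32830511-32869767) had 7.66, 7.39 and 7.64 with PIK75, 6.63, 6.96 and 6.95 with TGX221, and 6.83, 6.70 and 6.72 in control. Its PIK75 arrays lay above all others, while TGX221 and control overlapped. The log2 fold change with PIK75 was 0.81 (95% interval 0.60 to 1.02, adjusted p = 1.43e-05), or 1.75-fold. SLC7A9 was read by 1 probe set, and its control mean of 6.75 lay within that of the leukocyte markers, 5.97 to 7.1. SLC7A13, another partner of SLC3A1, was the dimmest light chain, with 5.42, 5.55 and 5.50 with PIK75, 5.35, 5.37 and 5.37 with TGX221, and 5.21, 5.28 and 5.32 in control. It was called higher at 0.22 (adjusted p = 0.00396) and fell to -0.13 with the hybridization spikes.

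**Figure D2:**
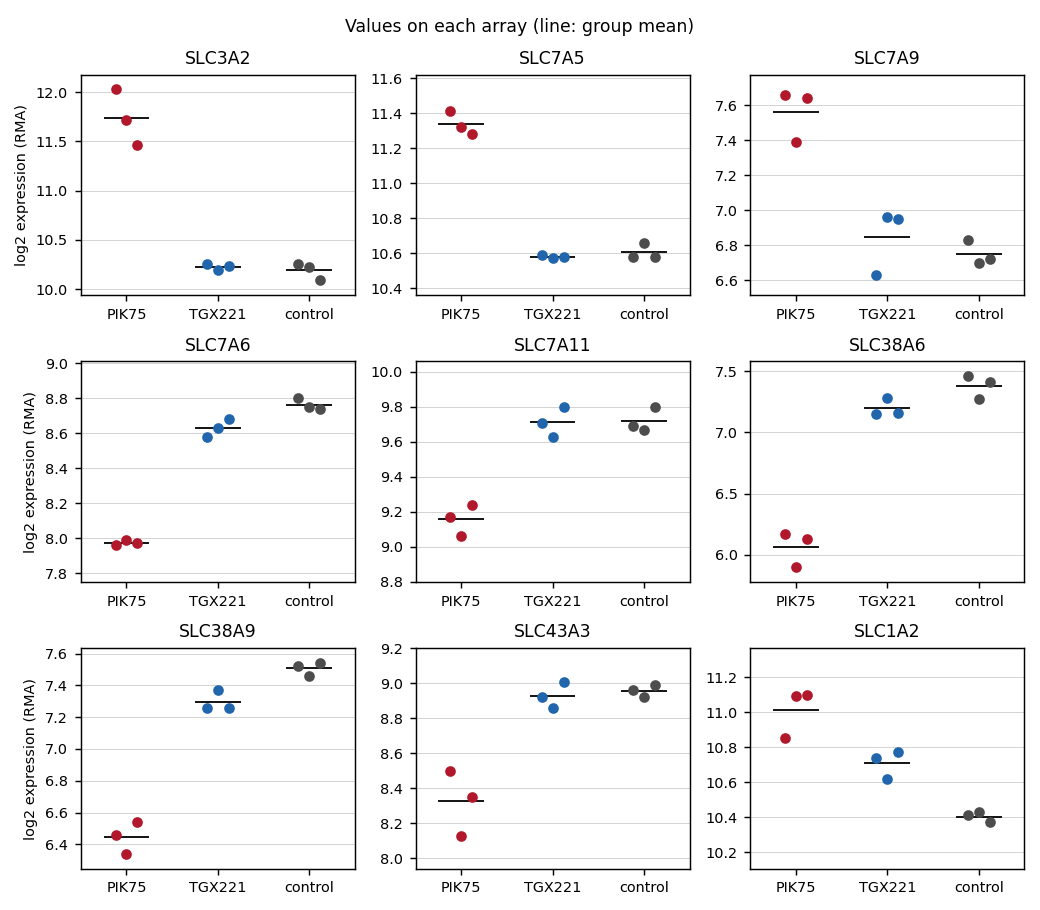
Log2 RMA value on each array for 9 genes, with points for single arrays, lines for group means and a scale of its own in each panel, in the order PIK75, TGX221, control. The 3 PIK75 arrays of SLC3A2, SLC7A5, SLC7A9 and SLC1A2 lie above all other arrays, and those of SLC7A6, SLC7A11, SLC38A6, SLC38A9 and SLC43A3 lie below them.

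SLC7A6OS, on the opposite strand of SLC7A6, shares 3786 bases of the locus with it. It had 8.34, 8.26 and 8.16 with PIK75, 7.46, 7.85 and 7.38 with TGX221, and 7.78, 7.86 and 7.89 in control. The PIK75 arrays were the highest, and 2 TGX221 arrays were below all control arrays. SLC7A6OS was higher with PIK75 than in control at 0.41 (adjusted p = 0.00396), opposite in direction to SLC7A6, and the call was lost with the hybridization spikes, at 0.06. The strand that each probe set reads was not checked here.

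In the cationic branch of SLC7A, whose members work without a heavy chain, 3 of 5 genes were called higher and 1 lower. The shares of all genes were 35.2% and 25.2%. SLC7A1, the widely expressed carrier of arginine and lysine, was bright, with 11.87, 11.81 and 11.90 with PIK75, 11.54, 11.55 and 11.64 with TGX221, and 11.56, 11.64 and 11.62 in control. PIK75 arrays lay above the rest. SLC7A1 was called higher at 0.25 (adjusted p = 0.00141), and 3 of its other 4 probe sets were called higher as well, but the value was -0.10 with the hybridization spikes. SLC7A2, an arginine carrier, was called lower at -0.26 (adjusted p = 0.00166) by its brightest probe set, while another of its probe sets was called higher at 0.19. SLC7A3 (0.20, adjusted p = 0.0383) and SLC7A4 (0.22, adjusted p = 0.00664) were called higher and turned to -0.15 and -0.13 with the hybridization spikes, and SLC7A14 was not called. The SLC7A3 call also ended without PIK75 replicate 3 or 5, TGX221 replicate 2, or control replicate 1 or 3 (0.11 to 0.21, adjusted p of 0.0508 to 0.173).

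In the SLC1A family, 3 of 7 genes were called higher with PIK75 and none lower, beside 35.2% and 25.2% of all genes. SLC1A4 and SLC1A5 are the exchangers for small neutral amino acids, and SLC1A5 is known for glutamine uptake in tumour cells. SLC1A4 had 9.84, 9.66 and 9.61 with PIK75, 9.17, 9.25 and 9.15 with TGX221, and 9.24, 9.26 and 9.22 in control. SLC1A5 had 9.03, 8.99 and 9.05 with PIK75, 8.56, 8.64 and 8.83 with TGX221, and 8.56, 8.6 and 8.59 in control. The PIK75 arrays of both genes lay above all others, with log2 fold changes over control of 0.46 and 0.44. Both calls were lost with the hybridization spikes, where the values were 0.11 and 0.09. For SLC1A4, 1 of the other 4 probe sets was called higher, and 3 were not called.

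By its brightest probe set, SLC1A2, a glutamate carrier best known from astrocytes, rose by the widest margin in its family. It had 10.85, 11.09 and 11.10 with PIK75, 10.74, 10.62 and 10.77 with TGX221, and 10.41, 10.43 and 10.37 in control, so the 3 groups did not overlap. Its log2 fold change was 0.61 with PIK75 (95% interval 0.46 to 0.76, adjusted p = 1.23e-05) and 0.31 with TGX221 (adjusted p = 0.0576). The 6 probe sets of SLC1A2 differed in direction. The brightest and 2 others were called higher with PIK75, 2 were not called, and 1 was called lower at -0.61, so that the mean of the probe sets gave 0.09 (adjusted p = 0.0733). The remaining glutamate carriers SLC1A1, SLC1A3, SLC1A6 and SLC1A7 were not called by their brightest probe sets. Other probe sets of SLC1A1 (0.42), SLC1A6 (0.22) and SLC1A7 (0.41 and 0.23) were called higher.

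**Figure D3:**
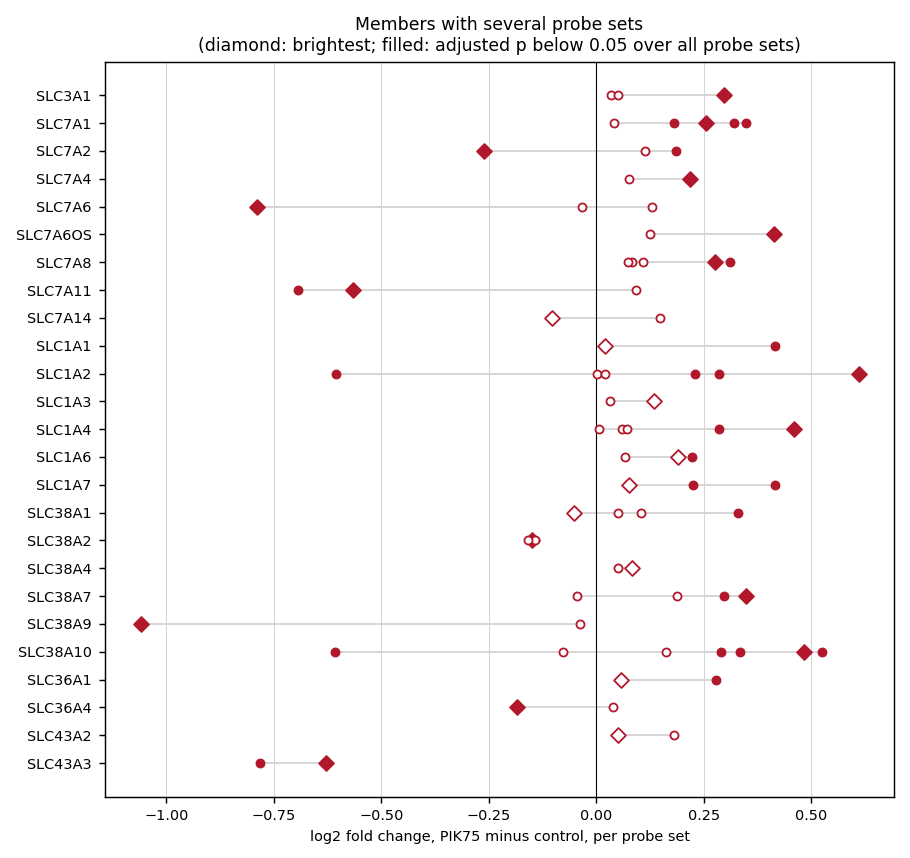
Log2 fold change of PIK75 minus control for every probe set of the 25 genes with more than 1 (diamonds for the brightest, circles for the others, filled where the adjusted p over all probe sets is below 0.05). SLC1A2, SLC38A10 and SLC7A2 have filled points on both sides of 0, and the 2 probe sets of SLC43A3 lie together at -0.63 and -0.78.

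In the SLC38A family of sodium-coupled neutral amino acid carriers, 5 of 11 genes were called higher and 3 lower with PIK75, beside 35.2% and 25.2% of all genes. The genes that fell furthest among all 39 belong here. SLC38A6 (chr14:60981245-61083733) had 6.17, 5.90 and 6.13 with PIK75, against 7.15, 7.28 and 7.16 with TGX221 and 7.46, 7.27 and 7.41 in control. The PIK75 arrays lay about 1 log2 unit below all others, near the dim end of the scale, and 1 TGX221 array reached into the control range. Its log2 fold change with PIK75 was -1.31 (95% interval -1.48 to -1.15, adjusted p = 3.51e-08).

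SLC38A9 (chr5:55625845-55712335) sits in the lysosome membrane, where it reports arginine to the RAG GTPases and mTORC1. Its values were 6.46, 6.34 and 6.54 with PIK75, 7.26, 7.37 and 7.26 with TGX221, and 7.52, 7.46 and 7.54 in control. The groups did not overlap, with TGX221 between PIK75 and control. Its log2 fold change was -1.06 with PIK75 (95% interval -1.19 to -0.93, adjusted p = 2.92e-08) and -0.21 with TGX221 (adjusted p = 0.108). A dimmer second probe set changed by -0.04 with PIK75 and was not called. SLC38A7, another lysosomal member that releases glutamine and asparagine, was called higher with PIK75, at 0.35 (adjusted p = 9.93e-05), but lay at -0.0041 with the hybridization spikes.

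The brightest members of the family changed by at most 0.15 in size as deposited, and by more with the hybridization spikes. SLC38A1 and SLC38A2 are carriers of glutamine and alanine at the plasma membrane, and SLC38A2 is a known target of ATF4. SLC38A1 had 12.80, 12.80 and 12.79 with PIK75, 12.87, 12.85 and 12.89 with TGX221, and 12.81, 12.83 and 12.91 in control, and was not called (-0.05, adjusted p = 0.36). Another of its probe sets was called higher at 0.33, while with the hybridization spikes SLC38A1 was called lower at -0.40 (adjusted p = 3.19e-05). SLC38A2 had 12.66, 12.65 and 12.63 with PIK75, 12.75, 12.82 and 12.79 with TGX221, and 12.79, 12.85 and 12.76 in control. It was called lower with PIK75 at -0.15 (adjusted p = 0.0201), a call lost in 3 of 18 alternatives, among them leaving out control replicate 3 (-0.12, adjusted p = 0.0772), and its other 2 probe sets gave -0.14 and -0.16 without a call. With the hybridization spikes SLC38A2 lay at -0.50 (adjusted p = 6.45e-07), and with cyclic loess at -0.02 without a call. SLC38A3, SLC38A5 and SLC38A11 were called higher by 0.20, 0.35 and 0.34, and all 3 lay below 0 with the hybridization spikes, SLC38A5 only at -0.0026. The SLC38A3 call ended without PIK75 replicate 3 or control replicate 3 (0.19 and 0.16, adjusted p = 0.0541 and 0.077). SLC38A4 and SLC38A12 were not called.

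SLC38A10, a less studied member of the family, had 9.39, 9.50 and 9.53 with PIK75, 9.32, 9.29 and 9.35 with TGX221, and 9.05, 8.95 and 8.96 in control. The control arrays lay below all others. It was higher with PIK75 at 0.48 (adjusted p = 1.08e-05), and 3 of its other 6 probe sets were called higher while 1 was called lower at -0.61. Annotation alone does not say which transcripts these probe sets read.

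The smaller families showed fewer calls. SLC43A3 (chr11:57406954-57427580), which is known to carry purine nucleobases in place of amino acids, had 8.50, 8.13 and 8.35 with PIK75, 8.92, 8.86 and 9.01 with TGX221, and 8.96, 8.92 and 8.99 in control. PIK75 arrays lay below the rest, and TGX221 and control overlapped. Its log2 fold change was -0.63 with PIK75 (95% interval -0.81 to -0.45, adjusted p = 3.28e-05), and its second probe set gave -0.78. The leucine facilitators SLC43A1 (-0.21, adjusted p = 0.0905) and SLC43A2 (0.05) were not called. SLC43A1 had 8.99, 8.94 and 8.51 with PIK75, so 1 array carried most of that difference. SLC36A4, a proton-coupled carrier of the dim group, was called lower at -0.19 (adjusted p = 0.0198), a call that ended without PIK75 replicate 3 or 5 or control replicate 5 (-0.17 to -0.14, adjusted p of 0.057 to 0.0864). SLC36A1, which exports small amino acids from lysosomes, was not called by its brightest probe set (0.06). Its other probe set was called higher at 0.28 (adjusted p = 0.00575), and with the hybridization spikes SLC36A1 was called lower at -0.30 (adjusted p = 0.0018).

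**Figure D4:**
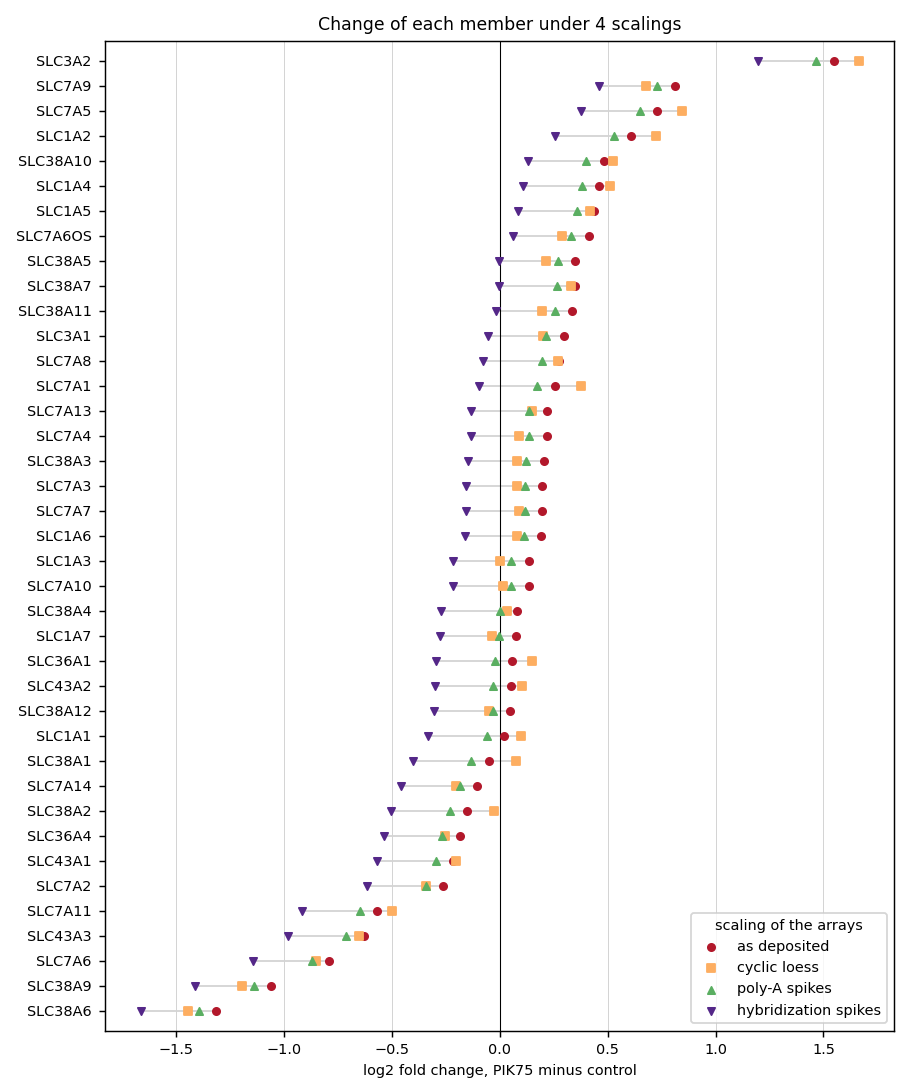
Log2 fold change of PIK75 minus control for each of the 39 genes under 4 scalings of the arrays, as deposited (circles), cyclic loess (squares), centred on poly-A spikes (upward triangles) and centred on hybridization spikes (downward triangles). SLC3A2 stays above 1.1 under all 4 and SLC38A6 below -1.2, while 8 genes are above 0 with the hybridization spikes, against 28 as deposited.

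TGX221 moved the families little by the same test. SLC38A10 was the 1 gene called higher than in control, and 0 of the 39 were called lower (limma, adjusted p below 0.05), beside 0.809% of all genes higher and 0.399% lower. At an unadjusted p below 0.05 there were 12 of the 39 (30.8%) and 3620 of all genes (18.3%). The split over all genes was 160 higher and 79 lower as deposited, 464 and 44 with the poly-A spikes, and 81 and 552 with the hybridization spikes. SLC38A10 was higher by 0.33 (95% interval 0.21 to 0.45, adjusted p = 0.0306), with no overlap between groups, but the call was lost in 8 of 18 alternatives, among them the fit on only the TGX221 and control arrays (adjusted p = 0.0515). It was also lost without TGX221 replicate 2 or 5 or without any 1 control array, with log2 fold changes of 0.31 to 0.36 and adjusted p of 0.0555 to 0.142. SLC38A3 (0.29, adjusted p = 0.0542) and SLC1A2 (0.31, adjusted p = 0.0576) lay just outside the threshold. The other 36 genes ranged from -0.28, in SLC7A6OS, to 0.19, in SLC38A5, and the median was 0.04, against 0.00 over all genes.

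PIK75 and TGX221 arrays were also compared directly, at their unequal labelled doses. Here 14 of the 39 genes were called higher with PIK75 and 8 lower, beside 25.1% and 22.3% of all genes. At 1.5-fold or more, 4 were higher (SLC3A2, SLC7A5, SLC7A9 and SLC7A6OS) and 4 lower (SLC7A6, SLC38A6, SLC38A9 and SLC43A3), beside 1.73% and 8.44% of all genes. The split over all genes was 4967 higher and 4412 lower as deposited, 980 and 5438 with the poly-A spikes, and 626 and 11899 with the hybridization spikes. The transporters' split was 14 and 8, 6 and 10, and 5 and 21 in the same order.

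PIK75 exceeded TGX221 by 1.51 in SLC3A2 (95% interval 1.27 to 1.74, adjusted p = 2.24e-07), by 0.75 in SLC7A5 (adjusted p = 2.04e-07), by 0.72 in SLC7A9 (adjusted p = 4.76e-05) and by 0.69 in SLC7A6OS (adjusted p = 1.08e-04), on the log2 scale. It was lower than TGX221 by log2 differences of -1.13 in SLC38A6, -0.85 in SLC38A9, -0.66 in SLC7A6 and -0.60 in SLC43A3. SLC1A4 was higher by 0.51 and SLC36A4 lower at -0.25. These 10 genes and SLC7A11 (-0.56) kept their calls in every alternative that could test them, apart from the 1.5-fold minimum, which SLC1A4, SLC36A4 and SLC7A11 missed. Called but lost or turned elsewhere were SLC7A1, SLC7A7, SLC7A8, SLC1A2, SLC1A3, SLC1A5, SLC38A7, SLC38A10 and SLC38A11, all higher, and SLC38A2 and SLC43A1, both lower. Leaving out 1 array ended the calls of SLC1A3 (8 of the 9 arrays, all but PIK75 replicate 1), SLC38A2 (6, all but TGX221 replicate 2 and control replicates 3 and 5), SLC7A7 and SLC38A10 (5 each, all but PIK75 replicate 1 and the control arrays) and SLC38A11 (4, PIK75 replicates 3 and 5 and TGX221 replicates 2 and 3), with adjusted p of 0.0509 to 0.153. That of SLC43A1 (-0.32) ended without PIK75 replicate 5, where it was -0.17, or without TGX221 replicate 2 or 3. SLC1A2 and SLC38A10 again had probe sets called in both directions. The 3 comparisons share arrays in pairs, so their values stand side by side and are not independent of each other.

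Lists of linked genes were read in the same fit, with directions as deposited. Over all genes, 35.2% were called higher and 25.2% lower with PIK75, and every list's counts below stand beside these shares. Of 15 kinases and factors of the ATF4 pathway, 6 were called higher and 3 lower with PIK75, with a median of 0.09, close to that of all genes. TRIB3, a pseudokinase that ATF4 induces, rose by 1.41 on the log2 scale (mean 9.80 ± 0.154 with PIK75, 8.59 ± 0.033 with TGX221 and 8.39 ± 0.038 in control, SD, n = 3 each). CEBPB, a partner factor of ATF4, rose by 0.58 and ATF4 itself by 0.57. EIF2AK4, the kinase that senses uncharged tRNA upstream of ATF4, was lower with PIK75 at -0.85 (adjusted p = 8.07e-07) and lower with TGX221 at -0.37 (adjusted p = 0.0395). It was the 1 gene of these lists that was called with TGX221, and that call was lost in 10 of 17 alternatives, among them the replicate block (adjusted p = 0.257) and the mean of its probe sets (adjusted p = 0.116).

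Of 16 amino acid synthesis enzymes, 6 were higher and 3 lower with PIK75 (median 0.11). GLUL, which makes glutamine, and OAT, an ornithine aminotransferase, were lower at -0.69 and -0.74. PHGDH, the first enzyme of serine synthesis, and CTH, which makes cysteine, were higher at 0.55 and 0.59. Among 7 genes of glutamine and branched-chain amino acid use, 3 were higher and 2 lower (median 0.16), and the branched-chain aminotransferase BCAT1 was higher at 0.57. BCKDHB and BCKDHA, subunits of the dehydrogenase that follows it, moved apart at -0.55 and 0.34, and BCKDK, the kinase that restrains that enzyme, was higher at 0.25.

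Of 27 genes of amino acid sensing towards mTORC1, 7 were higher and 11 lower with PIK75 (median -0.02). SESN3, a stress-induced relative of the leucine sensor SESN2, was lower at -1.82, and SEH1L and MIOS, parts of the GATOR2 complex, were lower at -1.30 and -0.82. RRAGB, a RAG GTPase of the complex that SLC38A9 contacts, was lower at -0.89. Of 8 genes of glutathione synthesis and use, which depends on the cystine that SLC7A11 brings in, 2 were higher and 4 lower (median -0.31). GSR, which regenerates glutathione, and GCLC and GSS, which make it, were lower at -1.09, -0.67 and -0.53, and CHAC1, which breaks glutathione down, was higher at 0.47.

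Among 26 other amino acid carriers, 12 were higher and 5 lower with PIK75 (median 0.15). SLC25A13, a mitochondrial aspartate-glutamate carrier, was lower at -1.05, SLC25A15, a mitochondrial ornithine carrier, lower at -0.39, SLC25A44, a mitochondrial branched-chain carrier, higher at 0.52, and SLC6A20, a proline carrier, higher at 0.57. Of 5 accessory proteins, 1 was higher and 1 lower (median -0.04). NEDD4L, a ubiquitin ligase acting on membrane carriers, was lower at -0.70 and LRRC8A, a subunit of volume-regulated channels that pass amino acids, was higher at 0.37, while BSG (-0.15) and ARL6IP5 (-0.04) were not called. The shares of these lists called in either direction were 40% to 75%, beside 60.4% of all genes, and 6 of the 7 medians lay within 0.15 of that of all genes. With the hybridization spikes, at most 3 genes of any list were called higher, and the counts of lower calls were 9 of 15 for the ATF4 pathway, 9 of 16 for synthesis, 4 of 7 for glutamine and branched-chain use, 19 of 27 for sensing, 6 of 8 for glutathione, 14 of 26 for other carriers and 4 of 5 for accessory proteins. All 7 medians were then below 0. Under that scaling 386 of all 19775 genes were called higher and 13108 lower, and the median of all genes was -0.26. Of the list genes named as higher, BCKDHA (-0.02), BCKDK (-0.11), LRRC8A (0.02), CHAC1 (0.11) and SLC25A44 (0.16) lost their calls there, while BSG and ARL6IP5 were called lower.

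**Figure D5:**
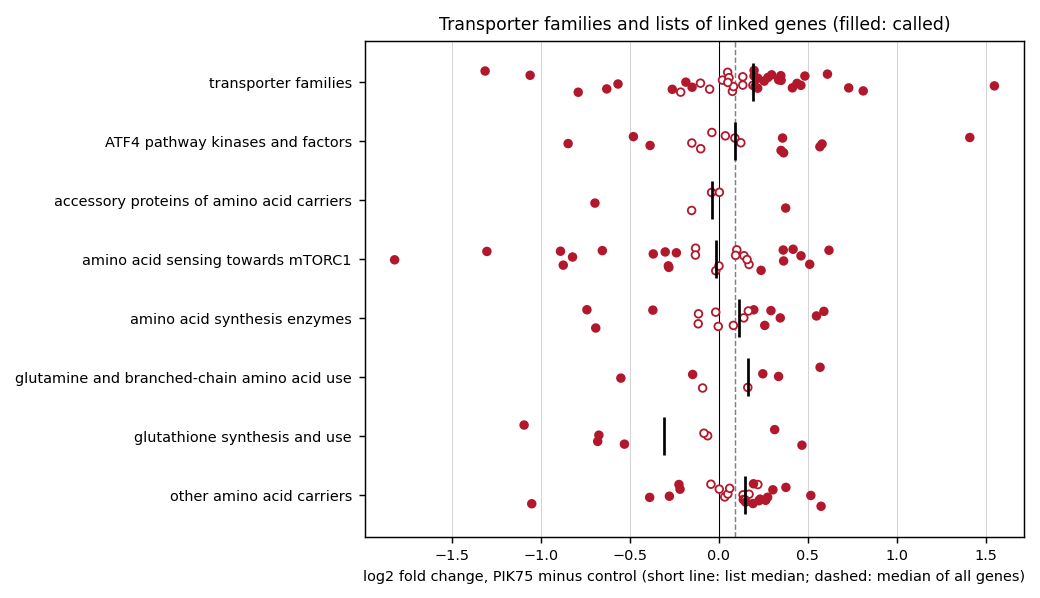
Log2 fold change of PIK75 minus control for the transporter families and 7 lists of linked genes, 1 point per gene (filled where the adjusted p is below 0.05), with a short line at each list's median and a dashed line at the median of all genes, 0.09. The glutathione list has the lowest median, -0.31, and the transporters the highest, 0.19; all values shift down with the hybridization spikes, where the transporters' median is -0.16.

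The genes whose pattern over the 9 arrays was most like that of SLC3A2, among 17096 genes with a mean log2 value of at least 6, were ZNF557 (Pearson r = 0.998), CPAP (0.997), PPP1R35 (0.997), RHBDD2 (0.997) and BRPF1 (0.996). These values describe 9 arrays that share 3 groups and carry no test. Among the transporters, SLC7A5 had r = 0.992 with SLC3A2 (rank 25 of these 17096 genes) and SLC1A4 r = 0.982 (rank 141). SLC38A9 (-0.97) and SLC7A6 (-0.969) had the most negative values.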

How the data were processed

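The deposited table holds 1 log2 value for each of 54675 probe sets on 9 Affymetrix arrays, made by the authors with RMA, as the submitters' processing notes state without a version. No sample column was left unmapped, and no raw files were used. Of the probe sets, 41091 carry 1 gene symbol in the platform annotation, 1801 several and 11721 none, and 62 are controls. The brightest single-symbol probe set stood for each of the 19775 genes, and the 39 members were covered by 93 probe sets in all, 25 of them with more than 1. Promoter windows came from a RefSeq table (GRCh38.p14) and were searched for 30 members, without those on chromosome 8. Neighbouring loci came from the RefSeq gene table of that build.

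The means of the 3 groups were fitted with limma 3.58.1 (lmFit and eBayes; degrees of freedom 6 residual, 6.155 prior) in R 4.3.3 to all 9 arrays, with no covariate. P-values were adjusted over all genes (Benjamini-Hochberg) and called below 0.05. Probe sets were fitted the same way over all probe sets. With 3 arrays a group the number of arrays limits the precision.

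Named with every array value are the heavy chains, the 8 light chains and each gene called at 1.5-fold or more; genes with opposed probe sets are named with them, and each list by up to 4 genes of smallest p. A few more genes are given by array, chosen after their values were seen. The members and lists were chosen with earlier results of these data known. Replicate numbers (1, 3 and 5 for PIK75 and control, 2, 3 and 5 for TGX221) were not used to pair the arrays in the main fit. Deviations of same-numbered PIK75 and control arrays correlated at -0.134, 0.122 and -0.046. The 2 numbers shared by PIK75 and TGX221 gave 0.065 and 0.235, and those of TGX221 and control 0.082 and -0.023. With 3 arrays a group, such deviations are too few to show whether same-numbered arrays shared a batch. Alternatives were 3 other scalings (24 poly-A and 18 hybridization spike probe sets, cyclic loess), mean of probe sets, no dim genes, only the 2 groups, trended and robust spread, a replicate block, 1.5-fold, and leaving out each array. The actin covariate was chosen after seeing the data. Some marker and list entries were not analysed here. Python 3.11.15 with numpy 2.4.6, pandas 2.3.3 and matplotlib 3.10.9 was used.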

Additional observations from a re-analysis of the deposited data

How the results depend on the processing

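Counts are higher, then lower, among the 39 genes, and calls over all genes. The fit without dim genes held only 19 of the 39, so its counts are among those 19. PIK75 against control gave 19, 8 and 11947, with 11, 9 and 7578 on the poly-A spikes, 4, 19 and 13494 on the hybridization spikes, 9, 5 and 7307 without dim genes, 14, 6 and 8767 with the actin covariate, and 4, 4 and 2354 at 1.5-fold or more. Leaving out 1 array gave 15 to 20, 7 to 9 and 10242 to 11910. PIK75 against TGX221 gave 14, 8 and 9379, with 6, 10 and 6418 on the poly-A spikes, 5, 21 and 12525 on the hybridization spikes, 9, 5 and 6420 without dim genes, 10, 6 and 7058 with the actin covariate, and 4, 4 and 2012 at 1.5-fold or more; leaving out 1 array gave 10 to 15, 6 to 8 and 7752 to 9243. TGX221 against control gave 1, 0 and 239, with 3, 0 and 508 on the poly-A spikes, 1, 1 and 633 on the hybridization spikes, 0, 0 and 30 with the mean of probe sets, 2 higher without dim genes or with the trended spread, 0, 0 and 0 on only the 2 groups, 144 over all genes with the actin covariate, and 0, 0 and 3 at 1.5-fold or more. Leaving out 1 array gave 0 to 3, 0 to 1 and 0 to 701. The last was 701 without TGX221 replicate 3, 61 without PIK75 replicate 3, 22 without control replicate 5, 4 without control replicate 1, and 0 without control replicate 3 or TGX221 replicate 2 or 5. With the replicate block, PIK75 against control gave 19 and 8 members, and PIK75 against TGX221 11 and 7. TGX221 against control gave 0 and 0, with 0 over all genes. Whether the replicate numbers mark shared batches could not be decided from these arrays.

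Of the 39 signs, 20 turned for PIK75 against control on the hybridization spikes and 18 for PIK75 against TGX221; on the poly-A spikes 5 and 11 did, and with cyclic loess 3 and 7. The genes named next turned with a call in at least 1 of both fits. For PIK75 against control they were, on the hybridization spikes, SLC3A1 (-0.056), SLC7A1 (-0.10), SLC7A3 (-0.15), SLC7A4 (-0.13), SLC7A7 (-0.15), SLC7A8 (-0.077), SLC7A10 (-0.22), SLC7A13 (-0.13), SLC1A1 (-0.33), SLC1A3 (-0.22), SLC1A7 (-0.28), SLC38A3 (-0.15), SLC38A4 (-0.27), SLC38A5 (-0.0026), SLC38A7 (-0.0041), SLC38A11 (-0.017), SLC38A12 (-0.30), SLC36A1 (-0.30) and SLC43A2 (-0.30), and with the mean of probe sets SLC7A2 (0.012) and SLC38A1 (0.11). For PIK75 against TGX221 they were, on the hybridization spikes, SLC7A1 (-0.0011), SLC7A3 (-0.23), SLC7A4 (-0.24), SLC7A7 (-0.11), SLC7A10 (-0.28), SLC1A3 (-0.12), SLC1A6 (-0.28), SLC1A7 (-0.26), SLC38A4 (-0.23), SLC38A7 (-0.088), SLC38A10 (-0.14), SLC38A11 (-0.10), SLC38A12 (-0.21) and SLC36A1 (-0.28), and on the poly-A spikes SLC38A10 (-0.0004). Fewer genes enter without dim genes, fewer arrays on 2 groups; for the other settings the cause was not tested. Signal over background was not available, which limits the dim members.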

Other observations

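Antisense symbols of these families were left out by the rule and had 1 value each on the arrays. SLC38A2-AS1 averaged 7.51 with PIK75, 7.45 with TGX221 and 7.36 in control, and was called higher with PIK75 at a log2 fold change of 0.15 (SE 0.0571, adjusted p = 0.0371, limma). SLC38A4-AS1 (0.03), SLC7A11-AS1 (0.02) and SLC7A14-AS1 (0.04) were not called with PIK75, and none of the 4 was called with TGX221.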
